A study of Homo sapiens with 17 samples.

Results

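HNRNPU and its paralogs HNRNPUL1 and HNRNPUL2 were followed through 17 CUT&Tag libraries of H1, a human embryonic stem cell line in wide use, grown in mTeSR1 on Matrigel. They are 3 of the 19970 protein-coding genes on chromosomes 1 to 22 and X of the RefSeq table (GRCh38.p14), and each was taken with 10 kb on either side. In CUT&Tag an antibody on chromatin directs the Tn5 transposase to the DNA beside its target, and a called summit is the base where a peak of such fragments is highest. H3K4me1 and H3K27ac were profiled in cells that had received virus with an shRNA against HNRNPU (shHNRNPU#1 or shHNRNPU#2, 2 libraries each per antibody) or against luciferase (shLUC, 2 libraries per antibody), selected with puromycin. POLIIS2P, spelled as in the sample titles, was profiled in 1 shHNRNPU#1 and 2 shLUC libraries, and HNRNPU in 2 libraries of untransfected cells. All 17 libraries came from the single H1 line, and the labels do not say whether the repeats were separate cultures, so p-values measure only the spread between these libraries, which may be technical.

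HNRNPU, also called scaffold attachment factor A, is an abundant nuclear protein that binds RNA and DNA and is known for tethering RNA to chromatin and for keeping chromatin decondensed. HNRNPUL1 and HNRNPUL2 encode proteins of the same family that also bind RNA and have been linked to the repair of broken DNA. H3K27ac is a histone mark of active promoters and enhancers, and H3K4me1 is found at enhancers and along the flanks of promoters. None of these assays measures the RNA or protein of HNRNPU, so the depth of the knockdown is unknown here.

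Each summit carries a score, a significance on the negative log10 scale, and was described here by its percentile within its own list, from 0 for the weakest to 100 for the strongest. The lists held 40487 to 90914 summits for H3K27ac, 147145 to 214333 for H3K4me1, 34649 and 35526 for HNRNPU and 79949 to 87456 for POLIIS2P, and the read depth was unknown. In 4 libraries, the histone libraries of shLUC cells, the antibody in the title and the antibody in the peak names were opposite. They are called here by the peak name, and values by title are also given for the comparisons between conditions. The highest H3K27ac summit within 10 kb of 9 pluripotency genes, POU5F1, SOX2 and NANOG among them, had a median percentile of 86.7 (4 of 9 above 90, the highest being LIN28B at 97.0), against 72.9 over all genes. The median was 39.9 for 3 neural genes, 53.9 for 3 mesoderm genes, and 0 for 4 endoderm and 2 trophoblast genes.

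The letters upstream of the gene starts are shown first, because some of the summits described below fell there. All 3 genes were found in the RefSeq promoter table, HNRNPU and HNRNPUL2 with a single start and HNRNPUL1 with 3. The 250 bases before a start are printed 5′ to 3′ on the gene's own strand, from GRCh38.p14. Capitals mark matches to GGGCGG (the letters of a GC box) and to CCAAT, on either strand, so that CCGCCC and ATTGG also count.
HNRNPU, chr1:244864544-244864793, minus strand: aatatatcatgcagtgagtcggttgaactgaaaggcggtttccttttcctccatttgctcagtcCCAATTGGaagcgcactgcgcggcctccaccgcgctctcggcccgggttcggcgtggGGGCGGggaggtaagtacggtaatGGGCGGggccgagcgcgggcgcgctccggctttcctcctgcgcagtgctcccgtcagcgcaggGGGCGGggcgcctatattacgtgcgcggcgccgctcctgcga
HNRNPUL1 first start, chr19:41262307-41262556, plus strand: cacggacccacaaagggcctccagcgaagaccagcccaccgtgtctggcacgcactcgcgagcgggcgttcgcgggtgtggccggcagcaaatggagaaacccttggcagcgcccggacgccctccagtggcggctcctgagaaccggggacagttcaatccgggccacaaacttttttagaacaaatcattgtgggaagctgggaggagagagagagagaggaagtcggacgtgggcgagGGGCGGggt
HNRNPUL1 second start, chr19:41264122-41264371, plus strand: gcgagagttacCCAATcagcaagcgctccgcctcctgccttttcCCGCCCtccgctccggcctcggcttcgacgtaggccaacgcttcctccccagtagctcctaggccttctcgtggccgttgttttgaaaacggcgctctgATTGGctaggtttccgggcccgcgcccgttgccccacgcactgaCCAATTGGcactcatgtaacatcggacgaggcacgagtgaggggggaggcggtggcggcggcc
HNRNPUL2, chr11:62727458-62727707, minus strand: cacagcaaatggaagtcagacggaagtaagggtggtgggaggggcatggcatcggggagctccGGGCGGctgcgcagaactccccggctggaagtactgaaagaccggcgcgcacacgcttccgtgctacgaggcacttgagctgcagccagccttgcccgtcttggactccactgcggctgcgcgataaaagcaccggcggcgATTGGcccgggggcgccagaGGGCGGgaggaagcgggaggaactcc

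The stretch before the third HNRNPUL1 start, not printed because no summit fell in it, had 70% G or C, 21 CG dinucleotides and no match to any string searched. The 4 printed stretches were also rich in G and C. HNRNPU had 66% G or C and 31 CG dinucleotides, and HNRNPUL2 had 66.4% and 23. The first and second starts of HNRNPUL1 had 63.6% with 21 CG and 64.8% with 25 CG. The median over the 35116 promoters of the table was 58% and 11 CG. GGGCGG occurred in 4 of the 5 stretches and in 42.6% of all promoters. CCAAT occurred in 3 of the 5, not in those of the first and the third HNRNPUL1 start, and in 32.0% of all promoters. The run CCAATTGG, in which CCAAT matches overlap on both strands, was present before the HNRNPU start (bases 186 to 179 before it) and before the second HNRNPUL1 start (bases 63 to 56 before it). The other 6 strings searched on both strands matched in none of these windows. They were the TATA box TATAAA (in 10.7% of all promoters), the ETS string CCGGAAG (8.52%), the palindromic NRF1 consensus (1.03%), the YY1 string AAGATGGCG (0.652%), the E-box CACGTG (6.34%) and the CRE string TGACGTCA (1.65%).

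The 3 windows held 220 summits. Summits that followed each other within 250 bp were chained into 50 sites, 14 of which were seen in 1 library. HNRNPU held 63 summits in 14 sites, HNRNPUL1 81 in 25 and HNRNPUL2 76 in 11. Each gene had 2 sites at which all 4 antibodies had a summit. At HNRNPU these lay over the start and at +1101 to +1524, whereas at HNRNPUL1 and HNRNPUL2 one lay at a start and the other beyond the end of the gene, near the start of a neighbour.

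**Figure D1:**
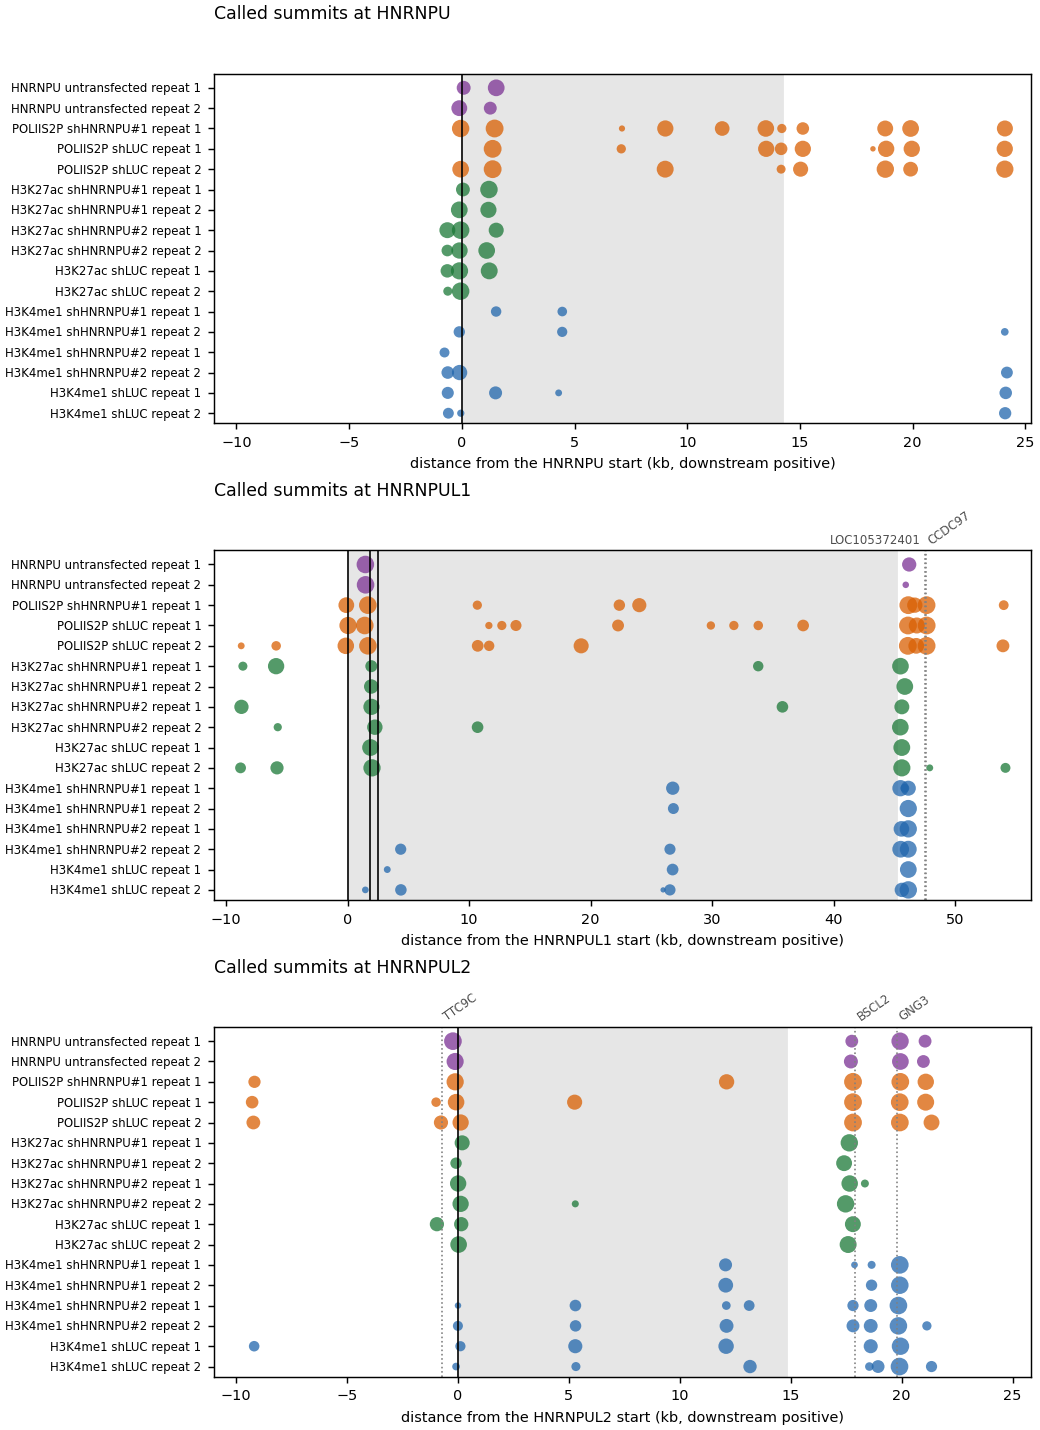
Called summits at HNRNPU (top), HNRNPUL1 (middle) and HNRNPUL2 (bottom) by library (rows) and distance from the first start of the gene in kb (horizontal axis). Point area rises with the percentile of the summit in its own list. The grey band is the gene, solid lines are its starts and dotted lines the nearest starts of neighbouring genes. At HNRNPU all H3K27ac summits sit within 2 kb of the start, while POLIIS2P summits also lie past the gene end, in part within COX20. At HNRNPUL1 and HNRNPUL2 large points also sit beyond the gene end, near or at the neighbours' starts.

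HNRNPU lies on chromosome 1 at 244850297 to 244864543 on the minus strand. A protein-coding locus, LOC124904588, overlaps its start (244864482 to 244907534). COX20, which encodes an assembly factor of cytochrome c oxidase, lies downstream at 244835306 to 244845063, and the snoRNA gene SNORA100 lies within HNRNPU. The site over the start, from −114 to +80 of it, had summits in 13 libraries, namely both HNRNPU, 2 of 3 POLIIS2P, all 6 H3K27ac and 3 of 6 H3K4me1 libraries. The H3K27ac summits there were at percentiles 56.5 to 95.8 and those of H3K4me1 at 9.07 to 71.1. The printed stretch before the start contained 1 HNRNPU, 2 POLIIS2P, 5 H3K27ac and 3 H3K4me1 summits of this site.

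A downstream site at +1101 to +1524 of the HNRNPU start had summits in 12 libraries. All 3 POLIIS2P libraries had their strongest summit of the window here, at percentiles 99.49, 99.51 and 99.69. Both HNRNPU libraries (86.6 and 48.0), 5 H3K27ac libraries (68.2 to 95.3) and 2 H3K4me1 libraries (28.2 and 48.8) also had a summit at it. The third promoter site, at −793 to −598, had only the histone marks, with 4 libraries of each. For both marks these were the shHNRNPU#2 and shLUC libraries. The shHNRNPU#1 libraries, whose lists were the shortest of each mark, had no summit there.

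Inside the HNRNPU gene the antibodies separated. H3K27ac had no summit beyond +1524, and H3K4me1 had a weak site at +4294 to +4455 in 3 libraries (percentiles 7.08 to 26.7). POLIIS2P summits lay along the gene and beyond its end, at 9 sites between +7073 and +19961. The last, at +19910 to +19961, lies within COX20, which is on the plus strand. Summits have no strand, so those beyond the HNRNPU end cannot be assigned to HNRNPU or COX20. Of the 9 sites, those at +14165 to +14196, +15030 to +15128, +18783 to +18824 and +19910 to +19961 had a summit in all 3 POLIIS2P libraries and in no library of another antibody. The strongest of them, at +18783, reached percentiles 77.5 to 93.6. At +24087 to +24183, also within COX20, the 3 POLIIS2P libraries (78.8 to 92.8) and 4 H3K4me1 libraries (11.2 to 44.6) had a summit.

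HNRNPUL1 lies on chromosome 19 at 41262557 to 41307787 on the plus strand, with starts at 41262557, 41264372 and 41265081. Its neighbours are AXL, a receptor tyrosine kinase gene that ends upstream, the noncoding LOC105372401 and CCDC97, which begin downstream. Most signal at its 5′ end was at the second start and not at the first. The first start had summits of POLIIS2P alone, in all 3 libraries, at percentiles 75.7 to 92.4. The site from +1412 to +2242, which spans the second start, had summits in 12 libraries. These were both HNRNPU libraries (95.95 and 96.3), all POLIIS2P libraries (96.1 to 97.3), all 6 H3K27ac libraries (40.3 to 92.8) and 1 H3K4me1 library (6.44). The HNRNPU summits stood at −353 and −337 of the second start, beyond the printed stretch, which contained 2 POLIIS2P summits and no other.

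The only site in the 3 windows with a summit in all 17 libraries was downstream of HNRNPUL1, at +45487 to +46216. Its median position was 1598 bp from the start of LOC105372401. There POLIIS2P reached percentiles 99.1 to 99.4, H3K4me1 81.5 to 94.2 and H3K27ac 67.3 to 91.5, whereas the 2 HNRNPU summits were at 60.4 and 5.63. At the start of CCDC97, +47644 to +47651, only POLIIS2P had a summit in all its libraries (98.96 to 99.52). Between the starts and the end of HNRNPUL1 the only site of more than 3 libraries was one of H3K4me1 at +26524 to +26810, in 5 of 6 libraries (32.2 to 51.4).

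HNRNPUL2 lies on chromosome 11 at 62712630 to 62727457 on the minus strand. It is followed by BSCL2, which encodes the lipid droplet protein seipin, and GNG3, which encodes a G-protein gamma subunit, and the table also lists a noncoding readthrough gene, HNRNPUL2-BSCL2, that begins 73 bp inside the HNRNPUL2 start. TTC9C starts at −720, on the other strand. The start site of HNRNPUL2, −226 to +190, had summits in 15 libraries. Here the HNRNPU summits (97.5 and 90.9) overlapped in percentile with those of POLIIS2P (81.3 to 92.1) and were above those of H3K27ac (35.6 to 85.6) and, in 4 of 6 libraries, H3K4me1 (5.33 to 26.6). Both HNRNPU summits were inside the printed stretch.

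Downstream of HNRNPUL2, the site at +17407 to +17876 stood at the first start of BSCL2 and had summits in 14 libraries, with POLIIS2P at 98.75 to 99.36 and H3K27ac at 76.9 to 94.4. At +19856 to +19948, between further starts of BSCL2 and GNG3, 11 libraries had a summit and H3K27ac had none. All 6 H3K4me1 libraries (94.4 to 97.6), both HNRNPU libraries (93.7 and 86.6) and all POLIIS2P libraries (97.9 to 98.0) were high there. The strongest H3K4me1 summit of the HNRNPUL2 window was at this site in 6 of 6 libraries, so window values for H3K4me1 describe the BSCL2 and GNG3 starts and not the HNRNPUL2 start.

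The HNRNPU antibody had summits at the genes of all 3 family members. At its own gene the first repeat had summits at +80 (percentile 57.2) and +1524 (86.6), and the second at −114 (76.8) and +1261 (48.0). The gaps between the repeats were 194 and 263 bp, so 1 of the 2 counted as shared within 250 bp. At HNRNPUL1 the summits at the second start were 16 bp apart, and those beyond the gene end were 284 bp apart. At HNRNPUL2 all 4 summits of the first repeat were matched in the second, with gaps of 99, 40, 14 and 75 bp. A shared summit was therefore present in all 3 windows, as in 63.5% of the 19970 gene windows, and 4 or more shared summits, as at HNRNPUL2, occurred in 2.27%. Of the 4 at HNRNPUL2, 1 was at its own start and 3 at starts of BSCL2 and GNG3. The authors' joint list of HNRNPU intervals, made from both repeats, had 2, 2 and 4 intervals of 400 bp at HNRNPU, HNRNPUL1 and HNRNPUL2.

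All 8 HNRNPU summits of the first repeat had a POLIIS2P summit within 500 bp, in at least 2 of 3 libraries, as did 55.1% of the 35526 HNRNPU summits of that repeat. An H3K27ac summit was within 500 bp in all 6 libraries at the HNRNPU start, the HNRNPUL2 start and the first BSCL2 start, and in none at the remaining BSCL2 and GNG3 sites. All 6 H3K27ac libraries had a summit that near at 3 of the 8, compared with 21.2% of all HNRNPU summits of the first repeat.

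The levels of the 4 antibodies at the starts were then compared by the strongest summit within 2000 bp of any start of the gene, with 0 where there was none. For HNRNPU itself, H3K27ac was at 95.3, 86.6, 95.8, 86.1, 92.0 and 95.5 (shHNRNPU#1, shHNRNPU#2 and shLUC, repeats 1 and 2 of each), 91.9 ± 4.51 (SD, n = 6). H3K4me1 in the same order was at 28.2, 35.1, 24.9, 71.1, 48.8 and 31.4, or 39.9 ± 17.4 (SD, n = 6). The lowest H3K27ac library was thus above the highest H3K4me1 library. POLIIS2P was at 99.6 ± 0.110 (SD, n = 3) and the HNRNPU antibody at 86.6 and 76.8.

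At the HNRNPUL1 starts H3K27ac spread more widely, at 40.3, 62.2, 80.6, 72.2, 86.7 and 92.8 (72.5 ± 19.1, SD, n = 6). H3K4me1 was listed at 0 in 3 libraries and at 34.0, 7.17 and 36.3 in the others. POLIIS2P was at 96.8 ± 0.579 (SD, n = 3) and the HNRNPU antibody at 95.95 and 96.3. At the HNRNPUL2 start the H3K27ac values were 68.3, 35.6, 82.2, 81.5, 61.0 and 85.6 (69.0 ± 18.9, SD, n = 6), and H3K4me1 was at 0 in both shHNRNPU#1 libraries and 5.33 to 26.6 in the other 4. POLIIS2P was lower here than at the other family members, 86.0 ± 5.53 (SD, n = 3), and the HNRNPU antibody was at 97.5 and 90.9.

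All 6 H3K27ac libraries stood above all 6 H3K4me1 libraries at the starts of all 3 genes, which was the case for 14.8% of 13744 genes. Over the whole window the same was true of HNRNPU alone (10.7% of 18819 genes), since the strongest H3K4me1 summits of the HNRNPUL1 and HNRNPUL2 windows, 89.3 and 96.4 on average, lay beyond the end of the gene. POLIIS2P stood above every H3K27ac library at the starts of HNRNPU and HNRNPUL1 (26.4% of 12715 genes) but not of HNRNPUL2, and in the windows of all 3 (28.4%). Within 1000 bp of the HNRNPU start it did not, with POLIIS2P at 0 to 94.22 and H3K27ac at up to 95.85. The HNRNPU antibody stood above every H3K27ac library at the starts of HNRNPUL1 and HNRNPUL2 (23.6% of 12477 genes) but not at HNRNPU. With the shLUC libraries named by title the H3K27ac and H3K4me1 libraries overlapped at the starts and in the windows of all 3 genes, whereas which genes had POLIIS2P or the HNRNPU antibody above H3K27ac was the same under both names. These are ranks within separate lists of unequal length, so they order a site within each antibody and do not compare amounts between antibodies.

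**Figure D2:**
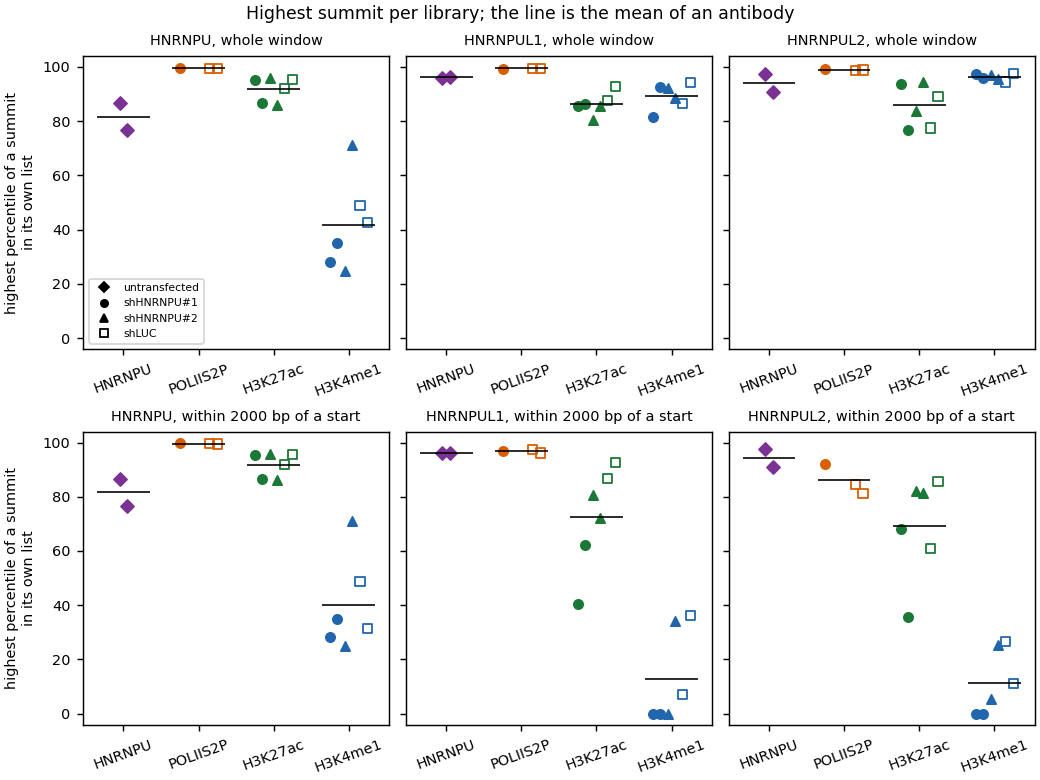
Percentile of the strongest summit in its own list (vertical axis, 0 to 100) for each library, by antibody, in the whole window (top row) and within 2000 bp of a start (bottom row). Filled points are shHNRNPU or untransfected libraries, open squares shLUC and lines the mean per antibody; H3K4me1 is at 81.5 to 97.6 in the HNRNPUL1 and HNRNPUL2 windows and at 0 to 36.3 at their starts, where HNRNPU and POLIIS2P are at 81.3 to 97.5 and H3K27ac ranges from 35.6 to 92.8.

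Against other genes with an annotated start, within 2000 bp of it, HNRNPU stood out most for POLIIS2P and HNRNPUL1 most for the HNRNPU antibody. The mean POLIIS2P percentile at the HNRNPU start was at or above that of 99.0% of 15812 genes, compared with 93.1% for HNRNPUL1 and 74.2% for HNRNPUL2. The POLIIS2P summits behind the HNRNPU rank lay inside the gene, at +1366 in both shLUC libraries and +1453 in shHNRNPU#1. Within 1000 bp of the HNRNPU start, POLIIS2P was at 94.22 in shHNRNPU#1 and at 0 and 85.8 in shLUC libraries. For the HNRNPU antibody the order was HNRNPUL1 (93.7%), HNRNPUL2 (90.8%) and HNRNPU (75.1%). The ranges over both repeats of HNRNPUL1 (95.95 and 96.3) and HNRNPUL2 (97.5 and 90.9) overlapped, and both repeats of HNRNPU were below them. For H3K27ac HNRNPU led with 90.2%, followed by 77.5% and 75.7%, and the ranges over libraries of HNRNPU (86.1 to 95.8), HNRNPUL1 (40.3 to 92.8) and HNRNPUL2 (35.6 to 85.6) overlapped except between HNRNPU and HNRNPUL2. Within 1000 bp of the start the H3K27ac range of HNRNPU was 56.45 to 95.85 and also overlapped that of HNRNPUL2. H3K4me1 at the starts was near the middle at HNRNPU (49.2%) and low at HNRNPUL1 (28.0%) and HNRNPUL2 (26.8%).

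The number of summits per window length differed between genes for several antibodies. The HNRNPU antibody had the same density in both repeats, 0.584 summits per 10 kb at HNRNPU, 0.307 at HNRNPUL1 and 1.15 at HNRNPUL2, where 3 of the 4 summits were at BSCL2 and GNG3. Per 10 kb of window, POLIIS2P had 2.73 ± 0.446 summits at HNRNPU, 1.69 ± 0.306 at HNRNPUL1 and 1.82 ± 0.166 at HNRNPUL2 (SD, n = 3). All 3 libraries were higher at HNRNPU than at either paralog. The windows of all 3 genes include POLIIS2P summits past the gene end, at HNRNPU from +15030 on and in part within COX20. For H3K4me1 the order was different, with 1.63 ± 0.503 at HNRNPUL2, 0.779 ± 0.302 at HNRNPU and 0.536 ± 0.233 at HNRNPUL1 (SD, n = 6), but the ranges over libraries overlapped between all 3 genes (0.861 to 2.01, 0.292 to 1.17 and 0.307 to 0.920). H3K27ac had 0.730 ± 0.160, 0.588 ± 0.246 and 0.718 ± 0.157 (SD, n = 6), which overlapped throughout.

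**Figure D3:**
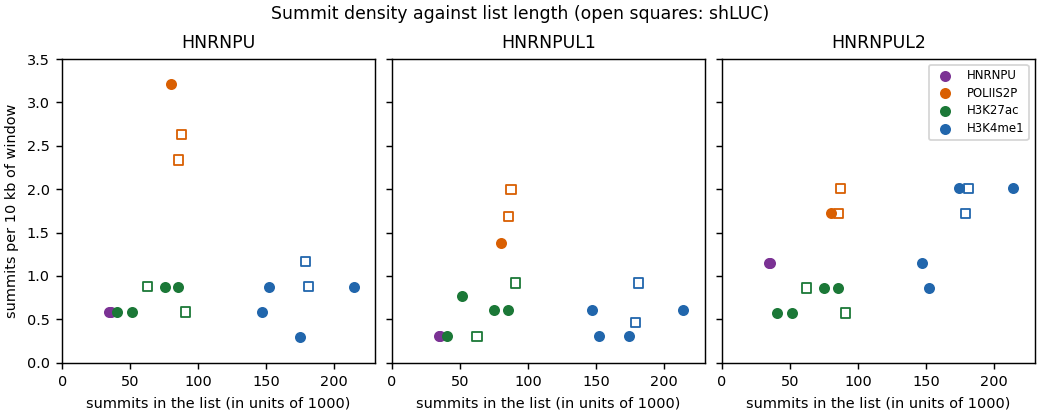
Summits per 10 kb of window (vertical axis) against the number of summits in the library's list in units of 1000 (horizontal axis) for HNRNPU, HNRNPUL1 and HNRNPUL2. Colours are antibodies and open squares shLUC libraries; POLIIS2P lists, of 79949 to 87456 summits, have the highest density at HNRNPU, 2.34 to 3.21, and the longer H3K4me1 lists reach 2.01 at HNRNPUL2.

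The comparison of shHNRNPU with shLUC cells asked whether marks at these genes differed when HNRNPU was targeted. Each mark had 4 shHNRNPU and 2 shLUC libraries, so an exact two-sided permutation test has 15 assignments and cannot give a p below 0.0667. At HNRNPU, the targeted gene, the strongest H3K27ac summit of the window was at 90.9 ± 5.33 (SD, n = 4) in shHNRNPU and 93.8 ± 2.46 (SD, n = 2) in shLUC cells. The difference of −2.80 was within the overlap of the groups (exact permutation p = 0.533), and all genes together had a median difference of −3.69. The same summits stood within 2000 bp of the start. For H3K4me1 the means were 39.8 ± 21.3 (SD, n = 4) and 45.7 ± 4.43 (SD, n = 2), a difference of −5.90 (exact permutation p = 0.800). The number of H3K27ac summits had the same mean of 2.5 in both, and H3K4me1 had 2, 3, 1 and 3 against 4 and 3 (exact permutation p = 0.267). By peak name, the summit numbers of both marks overlapped between conditions at all 3 genes, while over all genes those of shHNRNPU were all above or all below at 0.423% or 4.30% for H3K27ac and at 1.74% or 2.64% for H3K4me1.

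HNRNPUL1 was the only family member at which the H3K27ac groups did not overlap. Its highest window percentile was 85.7, 86.4, 80.6 and 85.4 in shHNRNPU and 87.7 and 92.8 in shLUC libraries, a difference of −5.71 (exact permutation p = 0.0667, the smallest possible, and adjusted p = 1 by Benjamini-Hochberg over 17986 genes). These values compare different sites. Those of 85.7, 86.4, 85.4 and 87.7 came from summits at +45487 to +45853, beyond the gene end and within LOC105372401. Only 80.6 and 92.8 were at the second start. All shHNRNPU libraries were below both shLUC libraries at 11.3% of genes and above them at 2.09%. Within 2000 bp of its starts the values were 40.3, 62.2, 80.6 and 72.2 against 86.7 and 92.8. This difference of −25.9 had an exact permutation p of 0.133 and an adjusted p of 0.929 over 11082 genes, beside a median of −5.79 over all of them, and 11.8% of genes had all shHNRNPU libraries below and 0.830% above. The lists behind these values held 51655, 40487, 75264 and 85142 summits in shHNRNPU and 62449 and 90914 in shLUC libraries. At equal length, with the 20000 strongest summits of each list, the highest window percentile among those summits was 63.0, 72.4, 27.02 and 38.0 in shHNRNPU and 61.6 and 67.1 in shLUC libraries, so the groups overlapped (difference −14.2, exact permutation p = 0.533). H3K4me1 at HNRNPUL1 overlapped between conditions in the window (−1.66, exact permutation p = 0.867) and at the starts (−13.2, exact permutation p = 0.533).

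At HNRNPUL2 the groups overlapped for both marks. H3K27ac in the window was at 93.7, 76.9, 83.9 and 94.4 in shHNRNPU and 77.5 and 89.2 in shLUC libraries (difference 3.90, exact permutation p = 0.667, and 22.9 with p = 0.200 at equal list length), and at the start the difference was −6.44 (exact permutation p = 0.867). The window values of H3K27ac came from summits at +17407 to +17803, so they describe the first BSCL2 start and not HNRNPUL2. H3K4me1 differed by 0.638 in the window (exact permutation p = 0.533) and by −11.2 at the start (exact permutation p = 0.333). No adjusted p over all genes was below 0.929 for any of these comparisons.

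By sample title, where the shLUC histone libraries change places, every comparison at the starts separated the groups. H3K27ac was then higher in all 4 shHNRNPU libraries by 50.8 at HNRNPU, 42.1 at HNRNPUL1 and 48.0 at HNRNPUL2, and all shHNRNPU libraries were above at 20.1% and below at 35.7% of 13297 genes. H3K4me1 was lower in all 4, with differences of −53.9, −81.2 and −65.6, and all were below at 29.7% and above at 28.9% of 13519 genes. Each had an exact permutation p of 0.0667, and the adjusted p over all genes was 0.139 for H3K27ac and 0.146 for H3K4me1. Over the window, H3K27ac by title differed by 45.2 at HNRNPU, −5.88 at HNRNPUL1 and −8.72 at HNRNPUL2, each without overlap (above at 15.4% and below at 43.7% of genes). H3K4me1 by title differed by −53.9 at HNRNPU and 13.3 at HNRNPUL2 without overlap and by −1.49 at HNRNPUL1 with it (above at 39.6% and below at 22.8% of genes). The summits behind the window differences at HNRNPUL2 lay beyond the gene end. The number of H3K27ac summits by title differed by −1.0, −0.75 and −4.0 at HNRNPU, HNRNPUL1 and HNRNPUL2, without overlap at HNRNPUL2 (2.5 against 6.5 on average, exact permutation p = 0.0667), and all shHNRNPU libraries were below at 58.1% and above at 2.31% of genes. That of H3K4me1 by title overlapped at all 3 genes (above at 46.4% and below at 3.30% of genes). By title the shLUC lists had 179137 and 181357 summits for H3K27ac and 62449 and 90914 for H3K4me1.

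POLIIS2P had 1 library of shHNRNPU#1 cells, so its values were compared without a test. The highest summit in the HNRNPU window was at 99.69 against 99.51 and 99.49 in shLUC cells, in HNRNPUL1 at 99.38 against 99.41 and 99.52, and in HNRNPUL2 at 99.36 against 98.75 and 98.84. For both paralogs these summits lay beyond the gene end. At HNRNPUL1 they stood at +46144 in shHNRNPU#1 and at +47651 and +47646, the CCDC97 start, in shLUC libraries. At HNRNPUL2 they stood at +17809, the first BSCL2 start. The shHNRNPU#1 library was above both shLUC libraries at 32.0% and below both at 39.3% of 16635 genes. Summit numbers were 11 against 9 and 8 at HNRNPU, 9 against 13 and 11 at HNRNPUL1, and 6 against 7 and 6 at HNRNPUL2 (above at 21.3% and below at 26.1% of genes). The starts gave 92.1 against 84.6 and 81.3 at HNRNPUL2 and 96.9 against 97.3 and 96.1 at HNRNPUL1 (above at 35.4% and below at 32.1% of genes). Each gene of the family still had POLIIS2P summits in the shHNRNPU#1 library, though not at every site. At +11626 to +11649 of HNRNPUL1 and −985 to −766 of HNRNPUL2, both shLUC libraries had a POLIIS2P summit and the shHNRNPU#1 library had none. The shLUC percentiles there were 9.075 and 28.1 at HNRNPUL1 and 21.95 and 59.51 at HNRNPUL2. Conversely, only the shHNRNPU#1 library had a POLIIS2P summit at +11550 of HNRNPU (64.55), +24005 of HNRNPUL1 (59.55) and +12110 of HNRNPUL2 (71.04). The share of such sites over all POLIIS2P summits was not calculated.

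The genes whose highest window percentiles over the 17 lists were closest to each family member were found by the mean absolute difference. For HNRNPU these were MTG2 (5.30 percentile points), a GTPase gene of the mitochondrial ribosome, GTPBP4 (6.25), which acts in assembly of the large ribosomal subunit, and UTP4 (6.45), which acts in that of the small subunit, against a median of 30.7 over all genes. For HNRNPUL1 they were APC2 (2.29), VPS52 (2.52) and RPS18 (2.72), against a median of 22.4. VPS52 and RPS18 are adjacent, so their windows overlap. For HNRNPUL2 they were GNG3 (0.475) and BSCL2 (0.689), which share its window, and PDLIM7 (2.21), against 23.4. Among themselves HNRNPUL1 and HNRNPUL2 differed by 5.55 points, and HNRNPU by 20.4 from HNRNPUL1 and by 23.9 from HNRNPUL2. These distances include sites of neighbours. In every H3K4me1 library the strongest summit of both paralog windows lay beyond the gene end, at 81.48 to 97.55, against 24.86 to 71.07 at HNRNPU. The lists share cells and antibodies, so these values are descriptions.

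Genes of other hnRNP proteins, which package and process nuclear RNA, were read in the same way. Of 25, 1 had all shHNRNPU libraries above both shLUC libraries for H3K27ac in the window and 4 had them below (background 2.09% and 11.3%), with a median difference of −0.661 against −3.69 over all genes. The gene above was PCBP1 (99.1 to 99.6 against 98.6 and 98.8). HNRNPF was among those below (91.7 to 93.8 against 96.4 and 97.7), with HNRNPC and HNRNPH1, at differences of −3.94, −3.21 and −2.63. Within 2000 bp of a start, 0 of 23 measured were above and 4 below (background 0.830% and 11.8%), with a median difference of −2.86 against −5.79 over all genes. These 4 were the genes HNRNPF, HNRNPC, HNRNPH1 and HNRNPA0. By title the counts were 16 above and 3 below in the window and 20 and 0 of 23 at the starts (background 15.4% and 43.7%, and 20.1% and 35.7%).

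For H3K4me1 in the window, 2 of the 25 hnRNP genes were above and 4 below (background 6.68% and 7.99%). The 4 with the largest differences were HNRNPH2 (−35.4), HNRNPR (−30.8), HNRNPK (−27.7) and SYNCRIP (−23.6). At the starts 0 of 21 were above and 1 below, CIRBP, a cold-inducible RNA-binding protein gene, at 0 to 4.12 against 21.6 and 35.1 (background 5.45% and 5.92%). The median differences were −0.0304 in the window and −1.36 at the starts, against −0.234 and −0.203 over all genes. By title the counts were 4 above and 16 below in the window and 0 and 22 of 23 at the starts (background 39.6% and 22.8%, and 28.9% and 29.7%).

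Of 5 genes for other scaffold and matrix attachment proteins, H3K27ac was lower in all shHNRNPU libraries at 1 in the window, SAFB2 (78.7 to 91.6 against 94.0 and 95.2), beside 11.3% of all genes. At the starts it was lower at 2, SAFB and SAFB2, which share a start region, with 3.42 to 65.2 against 73.5 and 77.0, beside 11.8%. H3K4me1 was higher at 1, ACIN1, both in the window (97.7 to 98.4 against 95.9 and 97.4) and at the starts (77.2 to 81.9 against 70.6 and 71.2), beside 6.68% and 5.45% of all genes. The median differences of the 5 genes in the window and at the starts were −2.53 and −14.6 for H3K27ac (all genes −3.69 and −5.79) and 1.40 and 4.77 for H3K4me1 (all genes −0.234 and −0.203). By title, H3K27ac was higher at 1 in the window and at 1 at the starts and lower at 0. Over all genes it was higher at 15.4% and 20.1% and lower at 43.7% and 35.7%. H3K4me1 by title was lower at 2 in the window and at 5 at the starts and higher at 0. Over all genes it was lower at 22.8% and 29.7% and higher at 39.6% and 28.9%. Except where a title is named, the values of the hnRNP and attachment genes use the antibody by peak name.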

How the data were processed

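The authors deposited 1 list of called summits per library. By the submitters' processing notes, tools were cutadapt, Bowtie2, SAMtools, MACS2 and deepTools on hg38, with no versions. The deposited scores are taken to be −log10 significance, a p-value or q-value, since the lowest were 2.00 to 2.01 in histone and 1.30 in other lists (thresholds of 0.01 and 0.05). Scores were used only for percentiles within a list (average ranks). A joint deposited list of 48095 HNRNPU intervals served for positions. Read depth is unknown, so no counting interval is given, and H3K4me1 and POLIIS2P are not in the protocol's antibody list. The paper listed with the study describes mouse cells and was not taken as a source of methods.

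The gene table and sequences were those of RefSeq for GRCh38.p14. A gene without a summit in its window was given percentile 0, and genes at 0 in every library compared were left out. Conditions were compared by exact two-sided permutation of libraries, adjusted (Benjamini-Hochberg) over all protein-coding genes measured. The members and lists were chosen with earlier results of these data known. Named genes were the members, genes overlapping their windows, the 3 closest by mean absolute difference, and at most 4 per list, the largest differences among non-overlapping groups. The 2000 bp start zone was chosen after seeing the data. Replicate numbers did not pair the libraries (correlations of deviations from the group means −0.0246 to 0.0358). Calculations used Python 3.11.15, numpy 2.4.6 and pandas 2.3.3, and the test was checked on simulated data.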

Additional observations from a re-analysis of the deposited data

Results flagged for a closer look

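Among 18 groups of 4 shHNRNPU libraries, 2 had a library far from the others. The rule flags about 5% of groups by chance if values are independent and normally distributed. That does not hold where a missing summit counts as 0. At HNRNPUL1 the highest H3K27ac percentile in the window was 80.6 in the first repeat of shHNRNPU#2, and the nearest of the other libraries was at 85.4. At the HNRNPUL1 starts H3K4me1 was at 34.0 in the second repeat of shHNRNPU#2 and at 0 in the other 3.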

How the results depend on the processing

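Of 174 alternatives to the 12 tested differences, 153 did not reverse the sign and 21 did. Of the 174, 0 passed the threshold, which no assignment of this design can reach. The 153 include moves away from a main difference of 0, which cannot reverse. Main differences of 0 were those in the number of H3K27ac summits at HNRNPU and HNRNPUL2, which by title were −1.0 and −4.0. For each reversed or moved value the cause was not tested. By title, H3K27ac differed by 45.24 at HNRNPU and −8.72 at HNRNPUL2, and the number of H3K4me1 summits at HNRNPUL2 by 2.75. Within 1000 or 2000 bp of a start the HNRNPUL2 differences were −6.438 for H3K27ac and −11.15 for H3K4me1. With the gene body only, H3K27ac gave 38.09 at HNRNPU, where shLUC repeat 2 had no summit inside the gene and was set to 0. It gave −15.34 at HNRNPUL2, where shHNRNPU#1 repeat 2 had no summit inside the gene. In the same setting H3K4me1 gave −10.01 at HNRNPUL2, and the number of H3K27ac summits at HNRNPUL1 0.75. Over the whole window, that number per 100000 summits of the list differed by 1.257. With shHNRNPU#2 alone, H3K4me1 gave 2.252 at HNRNPU and 0.06963 at HNRNPUL1, and 0.5 summits at HNRNPUL2.

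Leaving out each library in turn gave H3K27ac percentile differences of −4.542 to −1.062 at HNRNPU, −8.245 to −3.175 at HNRNPUL1 and −1.953 to 9.759 at HNRNPUL2 (reversed without shLUC repeat 1). H3K4me1 gave −16.31 to −0.9113, −5.417 to 2.094 (reversed without shHNRNPU#1 repeat 1, 0.7584, or shLUC repeat 2, 2.094) and −0.8676 to 2.144 (reversed without shLUC repeat 1). Summit numbers for H3K27ac gave −0.5 to 0.5, −2.25 to 1.75 (reversed without shHNRNPU#1 repeat 2, 0.3333, or shLUC repeat 2, 1.75) and −0.5 to 0.5, and for H3K4me1 −1.75 to −0.75, −3 to 0 and −1.833 to −0.5. POLIIS2P percentiles gave 0.177 to 0.1962, −0.1446 to −0.03174 and 0.5268 to 0.6107, and its numbers 2 to 3, −4 to −2 and −1 to 0. Single HNRNPU libraries gave 76.77 to 86.58, 95.95 to 96.3 and 90.85 to 97.48.

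With the 20000 strongest summits of each list, H3K27ac differed by −5.827 (HNRNPU), −14.24 (HNRNPUL1, exact permutation p = 0.533) and 22.9 (HNRNPUL2), and H3K4me1 by 0, −4.284 and 6.416. POLIIS2P percentiles differed by 0.9075 (HNRNPU), −0.175 (HNRNPUL1) and 2.67 (HNRNPUL2), its numbers by 1.5 (HNRNPU) and −0.5 (HNRNPUL1), and the HNRNPU antibody was at 67.95 at HNRNPU and 93.2 at HNRNPUL1. Within 1000 bp of a start POLIIS2P differed by 51.32 at HNRNPU, where 1 shLUC library had no summit; within 1000 or 2000 bp it differed by 0.1837 at HNRNPUL1 and 9.169 at HNRNPUL2, and its numbers by 0.5 at HNRNPU and 0 at HNRNPUL1. The gene body only gave POLIIS2P 0.1837 at HNRNPUL1 and −4.118 at HNRNPUL2, and HNRNPU 67.26 at HNRNPU and 0 at HNRNPUL2, with 0 shared summits at HNRNPUL2. Within 100 bp 0 summits were shared at HNRNPU, and within 500 bp 2 at HNRNPU and 2 at HNRNPUL1.

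With a replicate block the differences stayed as they were, with −5.71 for H3K27ac at HNRNPUL1 at an exact permutation p of 0.111, the smallest possible. The numbers did not pair the libraries.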
